A study of Mus musculus with 16 samples.

Results

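The genes described here are 10 markers of the intestinal goblet cell and its mucus: Muc2, Fcgbp, Clca1, Zg16, Tff3, Klk1, Spink4, Agr2, Atoh1 and Spdef. They were chosen by name with earlier results of these data known and were looked up by Ensembl identifier in a table of read counts per gene. They are 10 of 49585 genes, and all 10 were among the 12559 genes with enough counts to be tested. RNA sequencing was done on 16 cultures of mouse small intestinal organoids, which are epithelial structures grown in vitro from intestinal crypts. The mice carried loxP-flanked Atg16l1 and, for ΔIEC organoids, a Cre recombinase driven by the villin promoter, which deletes this autophagy gene in intestinal epithelial cells. Mice of the study were 8 to 12 weeks old and on a C57BL/6 background, and fl/fl organoids lack the Cre. Organoids of each genotype were left untreated or received recombinant murine IL-22 at 10 ng/ml for 24 h, with 4 cultures in each of the 4 groups.

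Goblet cells make and release the mucus that covers the intestinal surface. Their main product is the gel-forming mucin MUC2, which is folded and disulfide-linked in the endoplasmic reticulum, decorated with O-linked sugars in the Golgi, packed into granules and secreted together with other gel constituents. The lineage depends on ATOH1, the factor that commits progenitors to the secretory lineages, and its later maturation on SPDEF. IL-22 is a cytokine of innate and T lymphocytes that acts on epithelial cells through STAT3 and is known for its effects on barrier and antimicrobial genes, and ATG16L1 defects are known to disturb secretory cells of the intestine.

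The sample descriptions carry 2 numbers in each genotype, which are read here as organoid lines. The labels do not say what they number, nor whether each is 1 mouse, and the results by line rest on this reading. Replicates 1 and 2 of every group were from the first line (number 1293 in fl/fl and 1290 in ΔIEC) and replicates 3 and 4 from the second (1294 and 1292), with 2 cultures per line and treatment. Each genotype thus rests on 2 lines, genotype and line cannot be told apart, and p-values measure the spread between cultures of 2 lines. Counts on genes ranged from 2135000 to 5574860 per culture, and the group medians were 3575724 without and 4022207 with IL-22 in fl/fl, and 3097941 without and 3445014 with it in ΔIEC cultures. Levels are given below as CPM, read counts scaled to a common library size by the TMM method.

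The genotype labels were checked on Atg16l1 itself. In fl/fl cultures 1 to 4 it stood at 38.9, 31.6, 41.3 and 49.2 CPM untreated and at 39.2, 39.96, 51.8 and 48.8 CPM with IL-22. In ΔIEC organoids it was at 2.59, 2.71, 1.21 and 4.15 CPM without and 0.810, 5.96, 0.302 and 0.289 CPM with IL-22. All ΔIEC cultures were below all fl/fl cultures, and the highest of them, IL-22–treated replicate 2 with 21 reads, is left out in turn below. Keratin 8 (Krt8) was the most abundant of 6 epithelial genes, at a mean of 2983 CPM. Of 8 stromal genes none had enough counts to be tested, with Dcn at 0 in every culture. Of 7 immune genes 3 could be tested, and Cd3e was at 0 in every culture.

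The 10 genes together made up 0.108% to 0.342% of the counts of a culture. Their summed level was 2819 ± 688 CPM without and 2651 ± 529 CPM with IL-22 in fl/fl organoids, and 1814 ± 258 CPM without and 1363 ± 323 CPM with it in ΔIEC organoids (mean ± SD, n = 4). Fcgbp accounted for 40.0% of this sum. Per kilobase of exon the order was another one. In untreated fl/fl organoids Tff3 (1389.7 RPKM) and Spink4 (1194 RPKM) led, as reads per kilobase scaled to library size (RPKM), followed by Agr2 (161), Fcgbp (108), Klk1 (33.2), Clca1 (17.1), Zg16 (12.5), Muc2 (10.6), Atoh1 (10.3) and Spdef (5.76). The exons of the Muc2 model summed to 7127 bp in the annotation used. The annotation release of the counting is not given, so per-length levels are uncertain, and the effect of another Muc2 model was not tested.

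**Figure D1:**
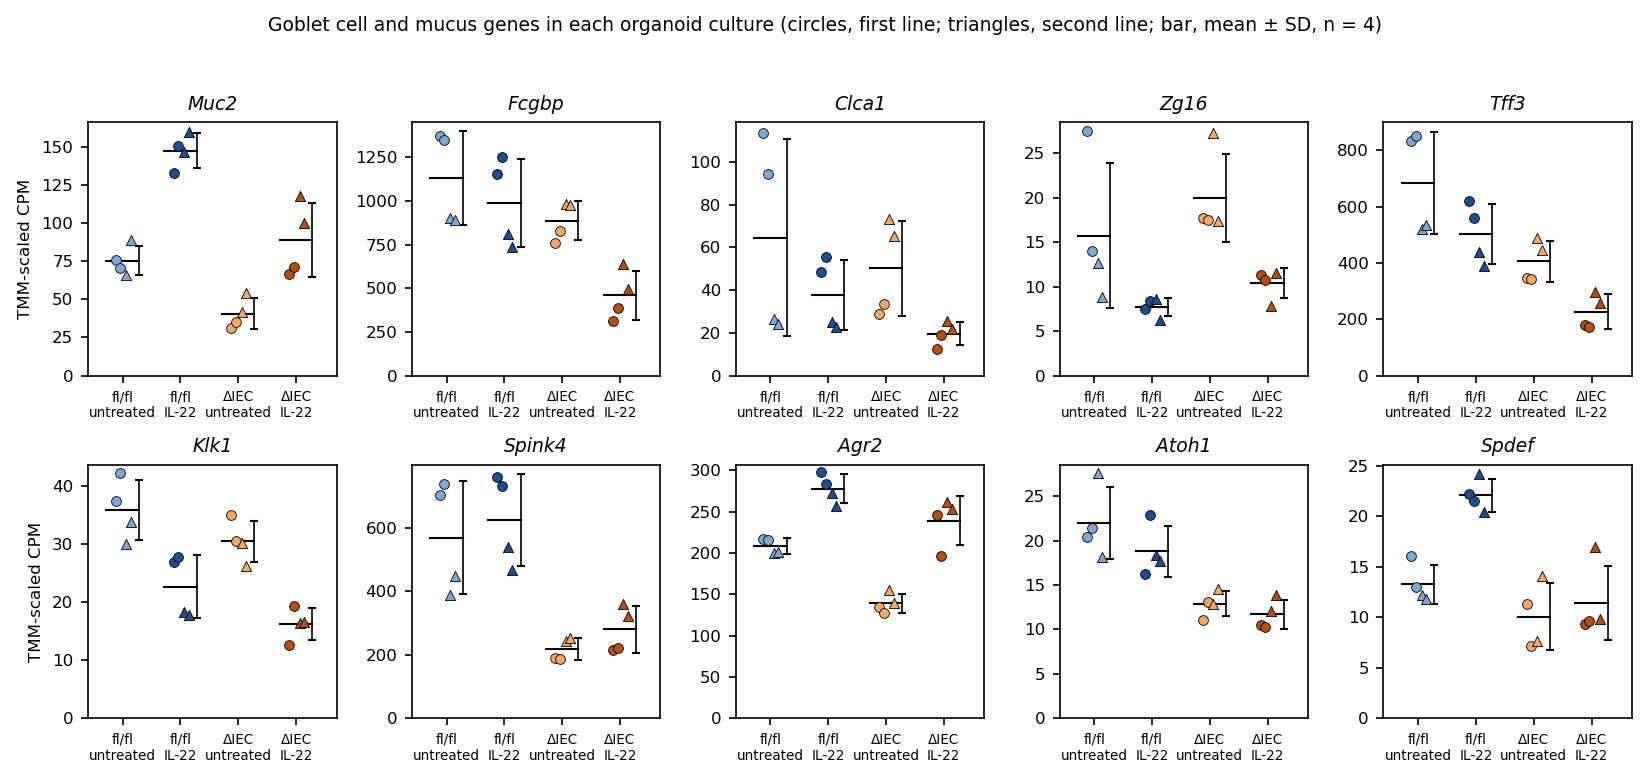
TMM-scaled CPM (vertical axes, from 0) of the 10 genes in each of the 16 cultures, by genotype and treatment. Circles are cultures of the first and triangles of the second organoid line of a genotype, and bars give mean ± SD (n = 4). Muc2 and Agr2 were higher with IL-22 in both genotypes without overlap, while the Clca1 points of the fl/fl lines lay apart.

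Sequences of the 250 bases before the RefSeq transcription start were at hand for 6 of the 10 genes (GRCm38.p6). Those of Muc2 (chr7:141690090-141690339, plus strand) and Agr2 (chr12:35992675-35992924, plus strand), which rose with IL-22 in both genotypes, are shown beside those of Fcgbp (chr7:28070986-28071235, plus strand) and Klk1 (chr7:44225110-44225359, plus strand), which fell in ΔIEC organoids. Capitals mark every match to CANNTG, the E-box letters recognized by factors such as ATOH1. A match is a description of the letters and not a binding site.
Muc2: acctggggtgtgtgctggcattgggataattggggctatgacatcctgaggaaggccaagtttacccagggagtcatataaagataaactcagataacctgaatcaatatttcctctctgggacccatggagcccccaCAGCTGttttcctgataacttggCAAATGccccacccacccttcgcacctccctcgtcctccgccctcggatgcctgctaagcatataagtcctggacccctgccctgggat
Agr2: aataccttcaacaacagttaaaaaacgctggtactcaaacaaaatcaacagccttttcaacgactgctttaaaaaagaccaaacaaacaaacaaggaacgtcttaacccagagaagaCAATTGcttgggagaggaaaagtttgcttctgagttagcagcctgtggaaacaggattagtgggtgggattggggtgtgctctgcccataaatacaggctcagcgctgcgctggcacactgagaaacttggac
Fcgbp: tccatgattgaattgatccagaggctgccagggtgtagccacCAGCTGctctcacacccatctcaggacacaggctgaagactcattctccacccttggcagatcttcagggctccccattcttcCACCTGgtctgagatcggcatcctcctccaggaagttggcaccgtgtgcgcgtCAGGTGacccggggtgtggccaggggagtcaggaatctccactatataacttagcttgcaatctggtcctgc
Klk1: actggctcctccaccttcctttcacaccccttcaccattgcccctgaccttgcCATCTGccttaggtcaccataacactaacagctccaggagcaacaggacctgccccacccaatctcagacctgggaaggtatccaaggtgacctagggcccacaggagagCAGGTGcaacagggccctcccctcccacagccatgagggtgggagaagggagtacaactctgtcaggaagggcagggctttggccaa
Muc2 had 2, Agr2 1, Fcgbp 3 and Klk1 2 matches to CANNTG, and 66.2% of the 32851 RefSeq windows of this length held at least 1. The form CAGCTG, which is contained in CANNTG, occurred once each in Muc2 and Fcgbp, against 13% of windows with a match. TTCNNNGAA, the letters of a STAT site, was in none of the 6 windows and in 7.02% of all. Spdef and Atoh1 had no CANNTG. The ETS core GGAA, searched on both strands because SPDEF is an ETS factor, was in all 6 windows and in 93.4% of all.

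With IL-22, Muc2 and Agr2, the mucin gene and its folding factor, rose in both genotypes, and Klk1 fell in both. In fl/fl organoids Muc2, Agr2 and Spdef rose and Zg16 and Klk1 fell. This was 3 of 10 higher and 2 of 10 lower, at an adjusted p under 0.01 from edgeR's quasi-likelihood test, beside a background of 10.6% of all tested genes higher and 10.2% lower. Of the same 10, in ΔIEC organoids Muc2 and Agr2 rose and Fcgbp, Tff3 and Klk1 fell, 2 higher and 3 lower beside a background of 9.83% and 7.65%. The median log2 fold change of the 10 genes was -0.19 in fl/fl and -0.48 in ΔIEC organoids, beside -0.05 and -0.01 over all tested genes. In such bulk samples, fewer goblet cells and less RNA of these genes per cell cannot be told apart.

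Muc2 (chr7:141690340-141754693, GRCm38) encodes the secreted mucin that forms the gel. In fl/fl organoids it was at 76.0, 70.7, 66.2 and 88.5 CPM untreated and at 133, 151, 147 and 160 CPM with IL-22. In ΔIEC organoids it was at 31.1, 34.9, 41.8 and 54.4 CPM untreated and at 66.8, 71.3, 118 and 100.1 CPM with IL-22. Every treated culture was above every untreated culture of its genotype, and the treated ΔIEC range overlapped the untreated fl/fl range. The log2 fold change was 0.96 ± 0.16 (SE, 1.95-fold; edgeR adjusted p = 1.13e-04) in fl/fl and 1.17 ± 0.17 (2.25-fold; adjusted p = 3.70e-05) in ΔIEC organoids. Within lines it was 0.95 and 0.99 in fl/fl and 1.06 and 1.18 in ΔIEC organoids, and both calls held when any 1 culture was left out. Of all tested genes, 15.4% in fl/fl and 14.1% in ΔIEC organoids had treated cultures all above the untreated ones.

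Agr2 (chr12:35992907-36004087) is a protein disulfide isomerase of the endoplasmic reticulum that is needed for MUC2 production. The fl/fl cultures were at 217, 216, 199 and 201 CPM untreated and at 298, 283, 272 and 257 CPM with IL-22. The ΔIEC cultures were at 134, 128, 155 and 139 CPM untreated and at 246, 196, 261 and 253 CPM with IL-22. The groups of either genotype did not overlap, and the lowest treated ΔIEC culture was just under the untreated fl/fl cultures. The gene rose by 0.41 ± 0.09 on the log2 scale (adjusted p = 0.00108) in fl/fl and by 0.78 ± 0.09 (adjusted p = 1.49e-06) in ΔIEC organoids, and both calls held with any 1 culture left out. The fl/fl call was lost without either line (adjusted p = 0.0193 without 1293 and 0.0226 without 1294). With the 2 cultures of each line summed, the ΔIEC call was the only 1 of the 5 in either genotype that remained (adjusted p = 0.00484).

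Fcgbp (chr7:28071236-28120862) encodes a large protein with mucin-like domains that is bound into the MUC2 gel. Its level was 1373, 1349, 902 and 891 CPM in untreated and 1156, 1251, 809 and 735 CPM in treated fl/fl cultures, with overlapping groups. In ΔIEC organoids it was 757, 827, 983 and 976 CPM untreated and 314, 388, 638 and 494 CPM with IL-22, where the groups did not overlap. The log2 fold change was -0.19 ± 0.20 (adjusted p = 0.496) in fl/fl and -0.95 ± 0.20 (1.93-fold lower; adjusted p = 0.00145) in ΔIEC organoids. Both ΔIEC lines were lower, by -1.17 and -0.79. Without line 1290, however, the adjusted p was 0.0432. Of all tested genes, 13.2% had treated ΔIEC cultures all below the untreated ones.

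Clca1 (chr3:145003817-145032776), a secreted metalloprotease of the mucus, ranged from 12.6 to 114 CPM. It was at 114 and 94.2 CPM in the first and at 26.3 and 24.3 CPM in the second untreated fl/fl line, and at 48.3, 55.4, 25.2 and 22.8 CPM with IL-22. Untreated ΔIEC cultures had 29.0, 33.5, 73.2 and 65.2 CPM and treated ones 12.6, 19.0, 25.4 and 21.7 CPM. The fl/fl groups overlapped, and the treated ΔIEC cultures were all below the untreated ones. Neither change passed the test in the fit of group means (log2 fold change -0.82 ± 0.41, adjusted p = 0.143 in fl/fl and -1.28 ± 0.47, adjusted p = 0.0493 in ΔIEC). With organoid line as a block the gene fell in both, with adjusted p of 2.76e-04 and 1.35e-07. It did not pass with the cultures of a line summed (adjusted p = 0.456 and 0.256) or in limma-voom with a correlation within lines (adjusted p = 0.104 and 0.0164). Within the fl/fl lines the log2 ratio was -1.003 and -0.08, so the fl/fl value rested on line 1293.

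Zg16 (chr7:127050156-127087328), a lectin-like protein that binds Gram-positive bacteria in mucus, had few reads, 19 to 94 per culture. In fl/fl organoids it was at 27.5, 14.04, 12.7 and 8.83 CPM untreated and 7.52, 8.41, 8.64 and 6.29 CPM treated. In ΔIEC organoids it was at 17.7, 17.5, 27.3 and 17.4 CPM untreated and 11.3, 10.8, 7.86 and 11.6 CPM treated. The groups of neither genotype overlapped, by a narrow margin in fl/fl. The log2 fold change was -1.01 ± 0.28 (adjusted p = 0.00853) in fl/fl, a call kept in 2 of 8 fits that left out 1 culture, and the value was -0.59 (adjusted p = 0.0562) without untreated replicate 1. In ΔIEC organoids it was -0.93 ± 0.27 (adjusted p = 0.0138), and with organoid line as a block the gene fell (adjusted p = 0.00122). In limma-voom with a correlation within lines, the fl/fl call was lost (adjusted p = 0.0106) and the ΔIEC change passed (adjusted p = 0.00526). With the cultures of a line summed neither passed (adjusted p = 0.0703 and 0.0814).

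Klk1 (chr7:44225360-44229618) and Tff3 (chr17:31125306-31129646) are secreted products of goblet cells, a kallikrein protease and the trefoil peptide that stabilizes mucus. Klk1 stood at 37.4, 42.1, 29.9 and 33.7 CPM in untreated and 26.9, 27.8, 18.2 and 17.7 CPM in treated fl/fl cultures, and at 34.9, 30.5, 30.2 and 26.2 against 12.6, 19.3, 16.3 and 16.5 CPM in ΔIEC cultures. No treated culture reached the untreated range in either genotype. It fell by 0.69 ± 0.16 on the log2 scale (adjusted p = 0.00242) in fl/fl, a call kept in 5 of 8 fits without 1 culture, and by 0.91 ± 0.17 (adjusted p = 4.38e-04) in ΔIEC organoids. Klk1 belongs to a tandem family of near-identical genes, so reads shared with its neighbours make its level uncertain.

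Tff3 was at 833, 850, 522 and 535 CPM in untreated and 622, 559, 440 and 391 CPM in treated fl/fl cultures, and at 346, 345, 488 and 446 against 181, 171, 298 and 258 CPM in ΔIEC cultures. The fl/fl groups overlapped through the difference between lines, whereas each line alone was lower with IL-22. The ΔIEC groups were apart. The log2 fold change was -0.45 ± 0.19 (adjusted p = 0.0840) in fl/fl and -0.83 ± 0.20 (adjusted p = 0.00339) in ΔIEC organoids. With organoid line as a block the gene fell in fl/fl organoids as well (adjusted p = 4.57e-06), as it did in limma-voom with a correlation within lines (adjusted p = 0.00534) but not with the cultures of a line summed (adjusted p = 0.335). The ΔIEC call was kept in 4 of 8 fits without 1 culture and had an adjusted p of 0.0159 without treated replicate 2.

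Spink4 (chr4:40920052-40931395), a secreted peptide of the Kazal serine protease inhibitor family, did not pass in either genotype. It was at 704, 739, 388 and 448 CPM in untreated and 761, 734, 541 and 467 CPM in treated fl/fl cultures, and at 191, 186, 245 and 253 against 215, 220, 361 and 324 CPM in ΔIEC cultures. Groups overlapped in both genotypes. The log2 fold change was 0.13 ± 0.21 (adjusted p = 0.669) in fl/fl and 0.36 ± 0.21 (adjusted p = 0.221) in ΔIEC organoids. With organoid line as a block it rose in ΔIEC organoids (adjusted p = 5.07e-04), but it did not pass with the cultures of a line summed (adjusted p = 0.493) or in limma-voom with a correlation within lines (adjusted p = 0.0664).

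The lineage factors Spdef (chr17:27714352-27728955) and Atoh1 (chr6:64729125-64731245) were the least abundant of the 10 genes per length in untreated fl/fl organoids. Spdef was at 16.1, 13.02, 12.2 and 11.8 CPM in untreated and 22.2, 21.5, 24.2 and 20.4 CPM in treated fl/fl cultures, without overlap. In ΔIEC organoids it was at 11.3, 7.14, 7.64 and 14.1 CPM untreated and 9.32, 9.66, 16.9 and 9.84 CPM treated, with overlap. The log2 fold change was 0.73 ± 0.20 (adjusted p = 0.00718) in fl/fl, kept in 1 of 8 fits without 1 culture (adjusted p up to 0.0260 in these), and 0.21 ± 0.23 (adjusted p = 0.532) in ΔIEC organoids. Atoh1 was at 20.5, 21.4, 27.7 and 18.2 against 16.2, 22.9, 18.4 and 17.7 CPM in fl/fl and at 11.1, 13.04, 12.9 and 14.5 against 10.5, 10.2, 12.1 and 13.9 CPM in ΔIEC cultures. Its groups overlapped in both genotypes, with log2 fold changes of -0.19 ± 0.15 (adjusted p = 0.367) and -0.12 ± 0.17 (adjusted p = 0.663).

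Treating line as a block raised the number of lower genes from 2 to 4 in fl/fl (Clca1, Zg16, Tff3 and Klk1) and from 3 to 5 in ΔIEC organoids (Fcgbp, Clca1, Zg16, Tff3 and Klk1), and that of higher genes from 2 to 3 in ΔIEC organoids (with Spink4 added). In that fit 15.6% and 11.7% of all tested genes were lower, and 15% and 13.8% higher. With the cultures of a line summed, none of the 10 genes passed in fl/fl organoids.

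**Figure D2:**
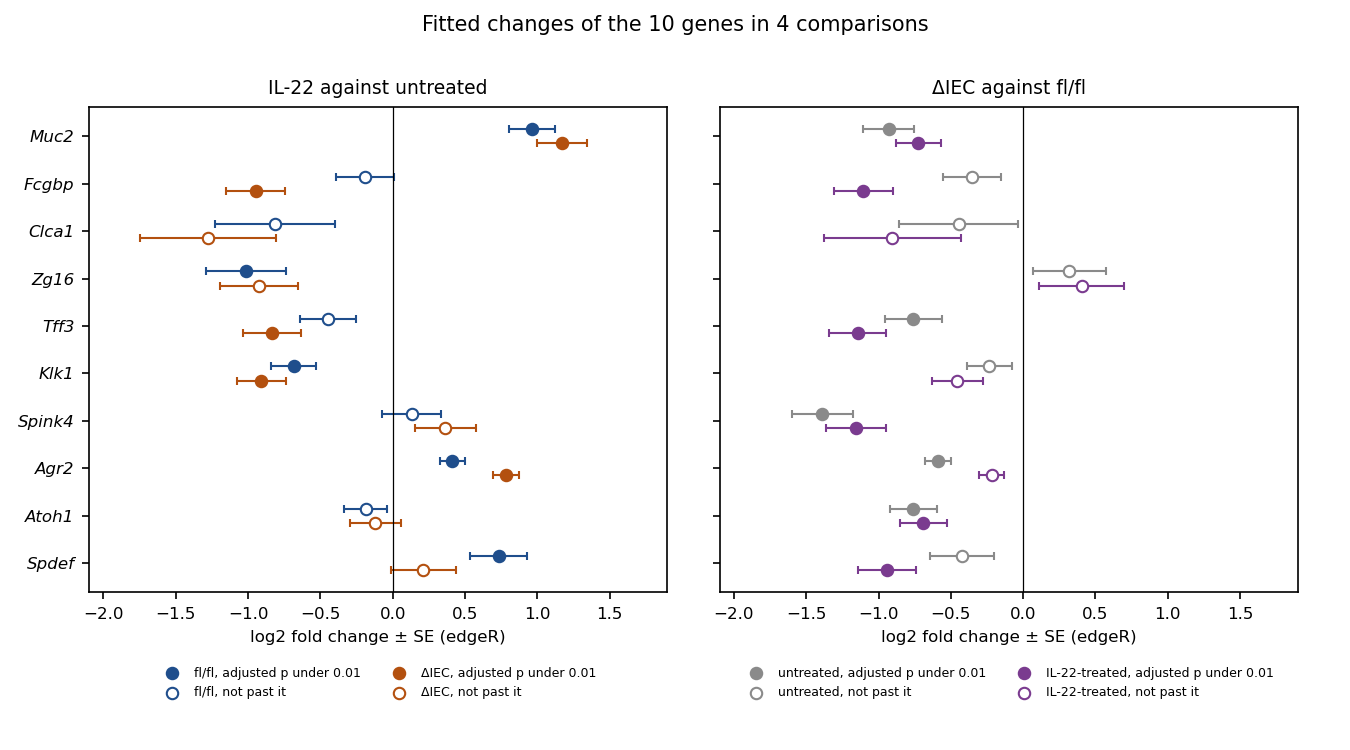
Log2 fold change ± SE of the 10 genes from the edgeR fit (horizontal axes) for IL-22 against untreated, left, and ΔIEC against fl/fl, right. Filled points passed an adjusted p of 0.01. Muc2 and Agr2 lie right of 0 in both genotypes on the left, and no filled point lies right of 0 on the right.

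Whether the response to IL-22 differed between genotypes was tested as an interaction. None of the 10 genes passed, beside 0.00796% of all tested genes in each direction. At an unadjusted threshold of 0.05, 1 of the 10 was lower and 1 higher, beside 375 and 537 of all 12559 tested genes. The lower gene was Fcgbp, with a difference of -0.75 ± 0.28 (edgeR adjusted p = 0.540), and the higher was Agr2, with 0.37 ± 0.12 (adjusted p = 0.492). DESeq2, which gave an adjusted p for 4 of the 10, called none. With organoid line as a block Fcgbp fell more in ΔIEC than in fl/fl organoids (-0.78, adjusted p = 1.24e-04), in a fit that called 0.326% of all genes in this direction. The Fcgbp difference did not pass with the cultures of a line summed (-0.76, adjusted p = 0.9998) or in limma-voom with a correlation within lines (-0.77, adjusted p = 0.0920). Spdef, called in fl/fl only, had a difference of -0.52 ± 0.30 (adjusted p = 0.762).

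Ratios of counts within a culture do not depend on library scaling. The ratio of Fcgbp to Muc2 reads was 18.1, 19.1, 13.6 and 10.1 in untreated and 8.72, 8.30, 5.52 and 4.60 in treated fl/fl cultures. In ΔIEC cultures it was 24.3, 23.7, 23.5 and 17.9 untreated and 4.70, 5.44, 5.43 and 4.93 treated. Treated cultures of either genotype were below all untreated ones, and the treated ranges of the genotypes overlapped. The ratio of Spink4 to Tff3 was 0.845, 0.869, 0.743 and 0.838 without and 1.22, 1.31, 1.23 and 1.19 with IL-22 in fl/fl cultures. In ΔIEC cultures it was 0.551, 0.539, 0.503 and 0.567 without and 1.19, 1.29, 1.21 and 1.26 with IL-22. Untreated genotypes were apart in this ratio, and treated genotypes overlapped. Both ratios were picked after the values had been seen and carry no test.

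**Figure D3:**
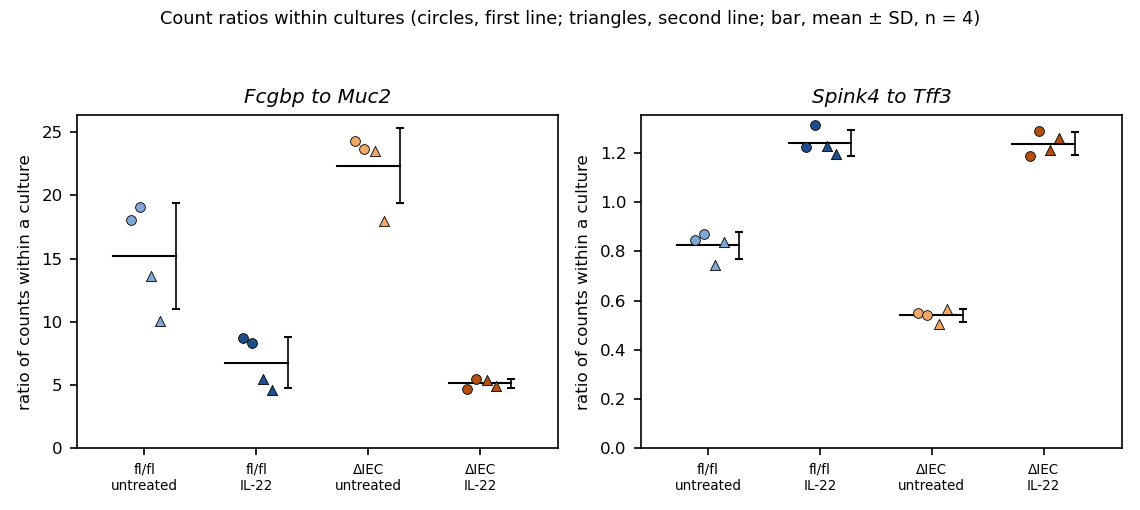
Ratio of reads of Fcgbp to Muc2 and of Spink4 to Tff3 within each culture (vertical axes, from 0). Symbols mark the first (circles) and second (triangles) line and bars mean ± SD (n = 4). Treated cultures lie at 4.60 to 8.72 and at 1.19 to 1.31, apart from all untreated cultures.

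Between genotypes, the called genes were all lower in ΔIEC organoids. Without IL-22, Muc2, Agr2, Tff3, Atoh1 and Spink4 were lower, 5 of 10, and none was higher, beside 5.98% and 3.78% of all tested genes. With IL-22, Muc2, Fcgbp, Spdef, Tff3, Atoh1 and Spink4 were lower, 6 of 10, and none higher, beside 9.84% and 9.91%. The medians over the 10 genes were -0.52 and -0.82 on the log2 scale, against -0.02 and 0.01 over all genes. These comparisons share their groups with those of IL-22, so the values are not independent of the ones above.

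The largest difference without IL-22 was that of Spink4, at -1.39 ± 0.21 on the log2 scale (2.62-fold lower; edgeR adjusted p = 2.02e-04). All ΔIEC cultures were below all fl/fl cultures, as was so for 12.6% of tested genes. With IL-22 the difference was -1.16 ± 0.21 (adjusted p = 3.94e-04), again without overlap, which 14.2% of tested genes showed in this direction. Tff3 differed by -0.76 ± 0.20 without IL-22 (adjusted p = 0.00977), a call kept in 2 of 8 fits that left out 1 culture, and by -1.14 ± 0.20 with IL-22 (adjusted p = 2.64e-04). The untreated Tff3 call was also lost with DESeq2 (adjusted p = 0.0142), with RLE size factors in edgeR (adjusted p = 0.0101) and without line 1293 (-0.39, adjusted p = 0.184).

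Muc2 differed by -0.93 ± 0.18 on the log2 scale without IL-22 (adjusted p = 0.00115) and by -0.72 ± 0.16 with it (adjusted p = 0.00169). The 4 groups thus ran from untreated ΔIEC over untreated fl/fl and treated ΔIEC, which overlapped, to treated fl/fl. Agr2 differed by -0.59 ± 0.09 (adjusted p = 1.80e-04) untreated and by -0.22 ± 0.09 (adjusted p = 0.0591) with IL-22. Fcgbp, whose untreated groups overlapped (-0.35 ± 0.20, adjusted p = 0.225), was lower after IL-22 (-1.10 ± 0.20, 2.15-fold; adjusted p = 4.43e-04).

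Both lineage factors were lower in ΔIEC organoids in at least 1 condition. Atoh1 was below every fl/fl culture with and without IL-22, at log2 fold changes of -0.76 ± 0.16 (adjusted p = 0.00267) untreated and -0.69 ± 0.16 (adjusted p = 0.00299) treated. The untreated call was kept in 7 of 8 and the treated call in 6 of 8 fits without 1 culture. It was lost without the treated ΔIEC culture that had 21 Atg16l1 reads (adjusted p = 0.0133) and without treated fl/fl replicate 2 (adjusted p = 0.0156). Both Atoh1 calls were lost in limma-voom with a correlation within lines (adjusted p = 0.0143 untreated and 0.0144 treated). Spdef differed by -0.42 ± 0.22 (adjusted p = 0.183) untreated and by -0.94 ± 0.20 (adjusted p = 0.00147) treated.

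Clca1, Zg16 and Klk1 passed in neither condition in the fit of group means with the filter on low counts. Their log2 fold changes were -0.45 ± 0.41, 0.32 ± 0.25 and -0.23 ± 0.16 untreated (adjusted p = 0.475, 0.398 and 0.305) and -0.91 ± 0.47, 0.40 ± 0.30 and -0.46 ± 0.17 treated (adjusted p = 0.148, 0.310 and 0.0506). Zg16 was the only 1 of the 10 with a higher mean in ΔIEC organoids in both conditions. Without a filter on low counts, Clca1 was called lower in ΔIEC organoids in both conditions. The filter did not remove Clca1 itself, which had 31 to 389 reads in a culture. The share of all genes called in the fit without the filter is not given here, so that call has no background beside it.

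Differences between the lines of a genotype were as large as those between genotypes for part of the genes. Untreated Clca1 was 4.10 times as high in fl/fl line 1293 as in line 1294, and 2.22 times as high in ΔIEC line 1292 as in line 1290. Spink4 was 1.73 times, Tff3 1.59 times and Fcgbp 1.52 times as high in the first as in the second untreated fl/fl line. Muc2, Agr2 and Atoh1 differed less in those fl/fl lines, with second-to-first ratios of 1.05, 0.925 and 1.09. In ΔIEC organoids, Muc2 was 1.46 times as high in line 1292 as in line 1290 untreated and 1.58 times with IL-22, and without line 1290 its treated genotype difference was -0.45 (adjusted p = 0.0217). For untreated Fcgbp, the second ΔIEC line (mean 979 CPM) was above the second fl/fl line (896 CPM). With the cultures of a line summed, none of the 10 genes passed between genotypes. Without line 1290, none passed with IL-22 and 3 passed without.

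Other gene lists are described below by counts of called genes, over a background of 10.6% of all tested genes higher and 10.2% lower with IL-22 in fl/fl, and 9.83% and 7.65% in ΔIEC organoids. Between genotypes the background was 3.78% higher and 5.98% lower in ΔIEC without, and 9.91% and 9.84% with IL-22. Other secretory cells varied with the lines as well. Of 9 Paneth cell genes, the defensin Defa24 had the highest group means in fl/fl organoids and Lyz1 in ΔIEC organoids. The summed level of the 9 genes was 7984, 7366, 5901 and 5640 CPM in untreated fl/fl and 3302, 3172, 4160 and 4010 CPM in untreated ΔIEC cultures. With IL-22 it was 9621, 8809, 7931 and 7207 CPM in fl/fl and 4675, 4062, 4864 and 4197 CPM in ΔIEC cultures. The summed Paneth level was higher in line 1293 than in line 1294 and lower in line 1290 than in line 1292 in the untreated groups. The same held for the summed level of the 10 genes, though not for each of them, since Muc2 and Atoh1 were lower in line 1293 than in 1294 and Klk1 was higher in line 1290 than in 1292. Of the 9 Paneth genes 5 were lower in ΔIEC organoids untreated and 5 with IL-22, of which 3 were lower in both conditions, and none was higher. With IL-22 against untreated, 3 of the 9 rose in fl/fl and 4 in ΔIEC organoids, and none fell. The sum of 9 enteroendocrine genes, 64.7% of it Chgb, was 507 ± 136 CPM in untreated fl/fl and 333 ± 77.6 CPM in untreated ΔIEC organoids, with overlapping cultures. Of these 9 genes 1 was lower in ΔIEC organoids untreated (Chgb did not pass, adjusted p = 0.0308) and 3 with IL-22, and none was higher. The part of these other cell types in the goblet gene values was not tested.

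Of 10 enterocyte genes, Alpi had the highest mean over all cultures, while Krt20 was above it in treated fl/fl organoids (546 against 540 CPM). The summed level of the 10 genes was 4229 ± 241 CPM in untreated and 1955 ± 193 CPM in treated fl/fl organoids. In ΔIEC organoids this sum was 4210 ± 316 CPM untreated and 1960 ± 280 CPM treated. With IL-22, 8 of the 10 genes in fl/fl and 6 in ΔIEC organoids fell and 1 rose in each. Of 7 stem cell genes 3 fell in fl/fl and 4 in ΔIEC organoids, and none rose. Between genotypes 3 were higher and 1 lower in ΔIEC organoids untreated, and 3 higher and 2 lower with IL-22. Their untreated sum was 1977 ± 151 CPM in fl/fl and 2448 ± 108 CPM in ΔIEC organoids, and the cultures did not overlap. Of 7 proliferation genes, led by Top2a, 6 fell in fl/fl and 2 in ΔIEC organoids, where the other 5 did not pass, and 6 were higher in ΔIEC than in fl/fl organoids under IL-22. Of 7 tuft cell genes 3 could be tested, and Gfi1b and Il25 had at most 3 counts in any culture. The part of all these lists in the goblet gene values was likewise not tested.

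Of 32 genes for mucin O-glycosylation and sugar donors 28 were tested, and 13 rose and 1 fell with IL-22 in fl/fl and 11 rose and 1 fell in ΔIEC organoids. B3galt5, a galactosyltransferase, was at 2.14 ± 1.56 CPM in untreated and 440.4 ± 43.97 CPM in treated fl/fl organoids and at 2.13 ± 0.395 and 472 ± 171 CPM in ΔIEC organoids (log2 fold change 7.55 ± 0.31 and 7.82 ± 0.32; edgeR adjusted p = 8.30e-13 and 6.34e-13). Gcnt3, which makes branched mucin cores, rose from 204 ± 20.7 to 444 ± 13.2 CPM and from 120.2 ± 21.7 to 289 ± 28.2 CPM. B4galnt3 rose in fl/fl (0.84 ± 0.12, adjusted p = 2.19e-05) and did not pass in ΔIEC organoids (0.13 ± 0.13, adjusted p = 0.500). The UDP-galactose transporter Slc35a2 rose in both (0.82 ± 0.10 in fl/fl and 0.87 ± 0.09 in ΔIEC). None of the genes of this or the following lists passed the interaction, so a call in 1 genotype does not show a difference between genotypes. The sialyltransferase St6galnac2 fell in both, by 0.63 and 0.55 on the log2 scale. The median log2 fold change of the list was 0.31 in fl/fl and 0.28 in ΔIEC organoids, beside -0.05 and -0.01 over all genes.

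In ΔIEC organoids 7 of these 28 genes were lower without and 10 with IL-22, and none was higher, with list medians of -0.10 and -0.13. The sialyltransferase St3gal1 was lower in both conditions (-1.14 ± 0.19, adjusted p = 3.56e-04, and -1.29 ± 0.20, adjusted p = 7.77e-05). Gcnt3 was as well, with -0.78 ± 0.11 and -0.62 ± 0.10. St3gal4 was lower in both conditions too (-0.72 ± 0.16 and -0.59 ± 0.15), as were all 7 genes called untreated. B4galnt3 was lower with IL-22 (-0.88 ± 0.12) and did not pass untreated (-0.16 ± 0.13, adjusted p = 0.390).

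Genes for mucin folding and disulfide formation went up with IL-22, 5 of 14 tested in fl/fl and 6 in ΔIEC organoids, and none went down (list medians 0.19 and 0.36). Ero1l, the oxidase that drives disulfide formation, made up 56.3% of this list's level and stood at 2342 ± 85.02 CPM without and 4039 ± 291 CPM with IL-22 in fl/fl and at 1616 ± 134 and 2236 ± 775 CPM in ΔIEC organoids. It rose in fl/fl organoids (0.79 ± 0.15, adjusted p = 6.07e-04) and was at 0.47 ± 0.15 (adjusted p = 0.0283) in ΔIEC organoids. Kdelr3, a receptor that returns proteins to the endoplasmic reticulum, and Creld2, a stress-induced chaperone, rose in both genotypes, by 0.92 and 0.66 in fl/fl and 0.87 and 0.69 in ΔIEC organoids. Fkbp11, a peptidyl-prolyl isomerase, rose by 0.66 in fl/fl and 0.96 in ΔIEC organoids. Unlike Agr2, the other folding genes that differed between untreated genotypes were higher in ΔIEC organoids: Creld2 (0.95 ± 0.13), Sdf2l1 (0.70 ± 0.15) and Manf (0.34 ± 0.08). With IL-22, 7 of the 14 were higher in ΔIEC organoids, among them Pdia3 (0.56 ± 0.09), and Ero1l was lower (-0.85 ± 0.15, adjusted p = 3.83e-04). The list medians between genotypes were 0.23 without and 0.41 with IL-22.

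Of 15 further secretory and goblet transcription factors, 4 rose and 2 fell with IL-22 in fl/fl and 3 rose and 1 fell in ΔIEC organoids (list medians 0.16 and -0.01). Xbp1, the unfolded protein response factor needed by secretory cells, went from 169 ± 16.9 to 422 ± 32.8 CPM in fl/fl and from 162 ± 7.71 to 379.5 ± 31.5 CPM in ΔIEC organoids. Klf4, a factor of goblet differentiation, and the epithelial ETS factor Elf3 rose in both, Klf4 by 1.20 and 0.85 and Elf3 by 0.94 and 1.04 on the log2 scale. Hes1, a Notch target that represses Atoh1, fell by 0.49 and 0.67, and Foxa2 fell in fl/fl organoids from 10.2 ± 2.57 to 4.86 ± 1.40 CPM. In ΔIEC organoids Elf3 was lower untreated (-0.36), and Creb3l1 (-0.995), Hes1 (-0.40) and Cdx2 (-0.31) were lower with IL-22 (list medians -0.01 and -0.24). Creb3l1 is a membrane-bound factor of secretory cells.

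Of 28 other goblet-enriched genes 23 were tested, and 17 did not pass with IL-22 in fl/fl and 17 in ΔIEC organoids. In fl/fl organoids 2 rose and 4 fell, beside a background of 10.6% and 10.2%, and in ΔIEC organoids 4 rose and 2 fell, beside 9.83% and 7.65% (list medians 0.09 and 0.0027). Retnlb, which encodes the secreted RELMβ, had 0 reads in all 8 untreated cultures, 7 to 26 in treated fl/fl and 28 to 73 in treated ΔIEC cultures. Against a floor of 3 counts per culture it was at least 4.46-fold higher in fl/fl and at least 17.2-fold higher in ΔIEC organoids, and it was higher in treated ΔIEC than in treated fl/fl organoids by 2.00 ± 0.39 on the log2 scale (adjusted p = 0.00152). Oit1 rose in both genotypes (0.70 in fl/fl and 0.56 in ΔIEC). Ttc39a (1.40) and the chemokine Ccl9 (0.75) rose in ΔIEC organoids and were at 0.62 (adjusted p = 0.02) and 0.40 (adjusted p = 0.0327) in fl/fl organoids. Slc12a8 and Tspan13 fell in both genotypes, Slc12a8 by 0.71 in each and Tspan13 by 0.60 in fl/fl and 0.62 in ΔIEC organoids. Hepacam2 (-0.62) and Guca2a (-0.61) fell in fl/fl and were at -0.50 (adjusted p = 0.0122) and -0.47 (adjusted p = 0.0713) in ΔIEC organoids. Guca2a encodes guanylin, the hormone of fluid secretion.

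Between genotypes, 6 of these 23 genes were lower in ΔIEC organoids without and 7 with IL-22 (list medians -0.22 and -0.17). Ang4, lower in both conditions (-1.11 and -1.08), is also among the 9 Paneth genes and is counted in both lists. Hgfac was at 109.95 ± 19.5 CPM in untreated fl/fl and 29.97 ± 9.15 CPM in untreated ΔIEC organoids (-1.925 ± 0.243, adjusted p = 3.61e-05). Bcas1 differed by -1.28 untreated and -2.31 with IL-22, Guca2a by -1.26 and -1.13, and Lrrc26, a potassium channel subunit, by -1.11 and -1.44. Hgfac differed by -1.46 with IL-22, and all 6 genes called untreated were lower with IL-22 as well. Retnlb was the only higher gene.

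Of 15 genes of granule release, 2 rose and 2 fell in fl/fl and 3 rose and 2 fell in ΔIEC organoids with IL-22 (list medians 0.08 and 0.13). The fl/fl counts were near the background of 10.6% higher and 10.2% lower. The granule SNARE Vamp8 rose in both (0.39 and 0.46), the motor Myo5b in fl/fl (0.26), and Rab27a (1.19) and Stx3 (0.32) in ΔIEC organoids. The ion cotransporter Slc12a2, which is also a stem cell marker, fell from 1416 ± 97.6 to 702 ± 60.1 CPM in fl/fl, and Nlrp6, a sensor linked to goblet secretion, from 359 ± 17.5 to 188 ± 15.1 CPM. Both fell in ΔIEC organoids too (-1.03 and -0.83). No gene of the list differed between untreated genotypes, and Sytl2 (-1.09), Vamp2 (-0.998) and Stxbp2 (-0.34) were lower in ΔIEC organoids with IL-22.

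Among relatives of the 10 genes, Muc5ac and Muc19 were at 0 in every culture, and Muc5b, Muc6 and Clca2 had at most 3 counts. Of 12 such genes 5 were tested. Clca4b had the highest mean over all cultures, though Clca3b was above it in untreated ΔIEC organoids (567 against 454 CPM). With IL-22 Clca4b rose from 346 ± 36.6 to 1344 ± 114 CPM in fl/fl organoids. In ΔIEC organoids it rose from 454 ± 35.2 to 1029.7 ± 119 CPM. Clca4a rose in fl/fl organoids (1.64 ± 0.35) and was lower in ΔIEC organoids with IL-22 (-1.75 ± 0.35), as was Clca4b (-0.39 ± 0.10). Clca3b was at 175 ± 78.8 CPM in untreated fl/fl and 567 ± 13.1 CPM in untreated ΔIEC organoids (1.70 ± 0.20, adjusted p = 1.71e-05) and stayed higher with IL-22 (1.32 ± 0.20). Clca3a2 (1.20 ± 0.27) and Clca4b (0.39 ± 0.10) were higher in untreated ΔIEC organoids. CLCA genes are close copies, so reads shared between them make these levels uncertain.

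**Figure D4:**
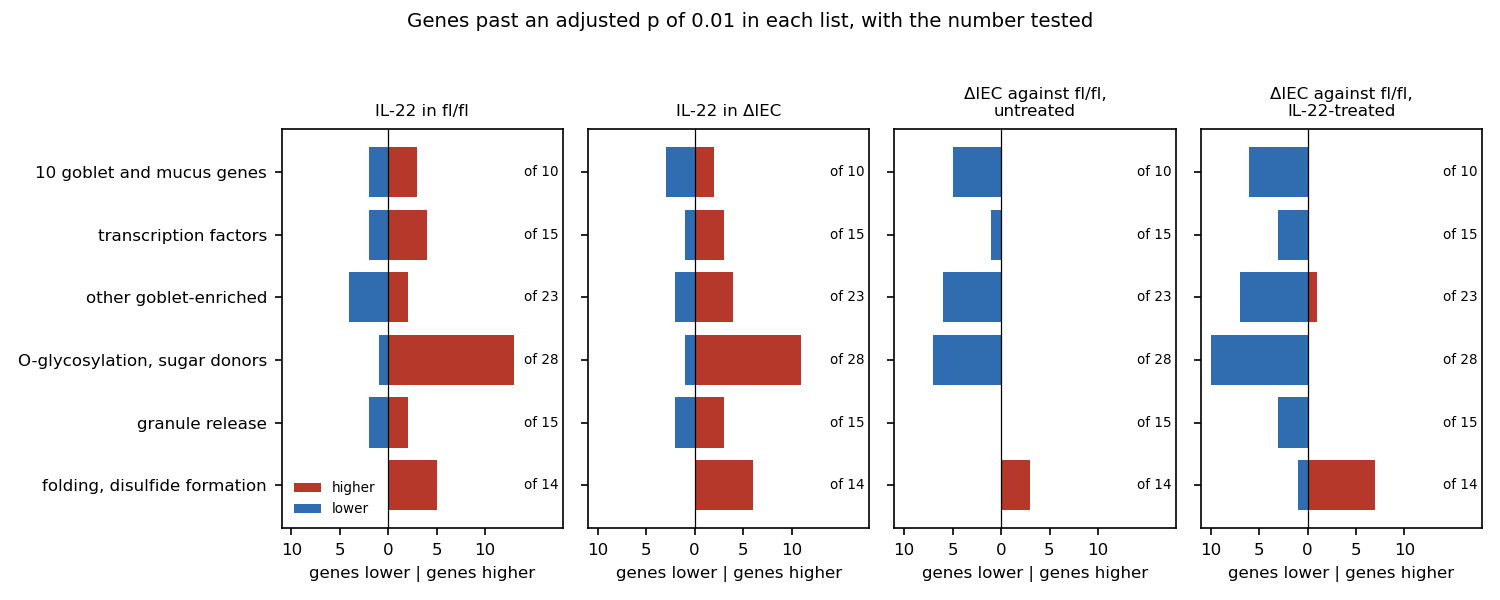
Number of genes past an adjusted p of 0.01 (edgeR) in each list, higher to the right and lower to the left of 0, in 4 comparisons, with the number of genes tested at the right edge of each panel. O-glycosylation genes had 13 and 11 higher with IL-22, and folding genes 3 and 7 higher in ΔIEC organoids.

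The profile of Muc2 over the 16 cultures was compared with those of the 11087 genes with a mean of at least 5 CPM. By Pearson's r of log2 CPM the closest outside the 10 genes were Egr1 (0.97), Etv3 (0.97), Gcnt3 (0.96), Myo15b (0.96) and Stk25 (0.96). Agr2 ranked 85 (0.92) and Spdef 668 (0.80), while Zg16 was at the other end (-0.79). After the mean of each group was subtracted, Baiap2 (0.92), Appl2 (0.91), Noxa1 (0.91), Ets2 (0.89) and Insc (0.89) were closest, and Spdef ranked 1162 (0.51). The cultures share lines and treatments, so these values describe likeness only.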

How the data were processed

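The authors trimmed reads with cutadapt, aligned them to GRCm38 (mm10) with TopHat2 and counted them per gene with HTSeq. As deposited, the counts are unnormalized integers per gene. The strand setting and annotation release of the counting are not given in the sources used here. The labels name the TruSeq RNA v2 kit and the study's methods a stranded total RNA protocol, so whether the libraries kept strand is uncertain, and reads of genes overlapping on opposite strands may not be told apart (for Zg16 and Klk1 such neighbours had 0 to 9 reads in all). Reads assigned to no counted feature (38.02% to 40.1%), ambiguous (0.740% to 1.13%) or aligned to several places (21.5% to 24.2%) were left out, and 36.3% to 38.3% were counted on genes. Reads assigned to no feature need not lie outside genes, since the strand setting is not known. Symbols and positions came from GENCODE M21 for 49326 of 49585 identifiers, matched without version (99.5%).

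Tests used edgeR 4.0.16 in R 4.3.3: filterByExpr, TMM and a quasi-likelihood fit of 4 group means, two-sided, with Benjamini-Hochberg adjustment over 12559 genes and a threshold of 0.01. The biological coefficient of variation was 0.115. On simulated data for IL-22 in fl/fl, 75.5% of 200 genes changed by 1 on the log2 scale were recovered, among 12352 genes, with 2 false calls. The simulation drew every culture independently, without differences between lines. It therefore does not give the recovery or the error rate for cultures that share lines, as these do. Single genes whose groups of 4 do not overlap have a two-sided exact permutation p of 0.0286, the smallest possible. SE is the absolute log2 fold change over the square root of F.

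Cultures of a line differed by more than sampling noise. Same-line cultures of different treatments deviated together from their group means (r across genes 0.26 to 0.44 in fl/fl and 0.06 to 0.32 in ΔIEC organoids). The values across lines (-0.43 to -0.08) mirror these because group means were subtracted, so they add no separate evidence. Organoid line served as a block in an alternative fit of the IL-22 effects and the interaction, and the fit of group means had no block. Further alternatives were RLE factors, DESeq2 1.42.0, limma-voom 3.58.1 with correlation within lines, other filters, a threshold of 0.05, summed cultures of a line, only the groups compared, and leaving out each culture or line. The 10 genes and all lists were chosen with earlier results of these data known. Named from each list were up to 3 genes per direction and comparison with the largest change past the threshold. The most abundant marker over all cultures or in a group was named as well, and so was Ang4, which is in both the Paneth and the goblet-enriched list.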

Additional observations from a re-analysis of the deposited data

Results flagged for a closer look

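Dixon's ratio of gap to range was computed 40 times, for 10 genes in 4 groups of cultures. Of these 40 ratios 2 passed the critical value, and since chance marks about 1 in 20, about 2 are expected by chance. Zg16 in untreated ΔIEC organoids had a ratio of 0.970, through replicate 3 at 27.3 CPM beside 17.4 to 17.7 CPM in the other cultures. Spdef in IL-22–treated ΔIEC organoids had a ratio of 0.910, through replicate 3 at 16.9 CPM beside 9.32 to 9.84 CPM. The effect of IL-22 on Fcgbp differed between genotypes in the fit with organoid line as a block (-0.78 on the log2 scale, edgeR adjusted p = 1.24e-04) but did not pass in the fit of group means (adjusted p = 0.540), with the cultures of a line summed (adjusted p = 0.9998) or in limma-voom with a correlation within lines (adjusted p = 0.0920).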

How the results depend on the processing

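Of 212 counts of called genes recomputed under the alternatives, 182 stayed within 1.5 times their value. These include counts that were 0 in the fit of group means and stayed 0, as for higher genes between genotypes and in the interaction. Of 1054 values of single genes 936 kept direction and side of the threshold. In the replicate block (organoid line) fit, 4 genes were lower with IL-22 in fl/fl, 5 in ΔIEC organoids and 1 (Fcgbp) in the interaction, 3 (with Spink4) were higher in ΔIEC organoids, and no IL-22 call of the 10 genes was lost. With a correlation within lines estimated by limma-voom, Zg16 with IL-22 in fl/fl (adjusted p = 0.0106) and Atoh1 between genotypes (adjusted p = 0.0143 untreated and 0.0144 with IL-22) lost their calls, while Tff3 in fl/fl (adjusted p = 0.00534) and Zg16 in ΔIEC organoids (adjusted p = 0.00526) gained one. The untreated Tff3 difference between genotypes lost its call with DESeq2 (adjusted p = 0.0142) and RLE size factors (adjusted p = 0.0101), and Zg16 in fl/fl with only the groups compared (adjusted p = 0.0301). Without a filter on low counts the numbers of lower genes were 4, 5 and 1, as in the block fit. Between genotypes the fit without this filter had 7 lower genes untreated (with Fcgbp and Clca1 added) and 7 with IL-22 (with Clca1 added). The share of all tested genes called is given only for the fit of group means and the block fit. Counts from the other alternatives, here and below, thus have no background beside them and do not show a stronger or weaker result for the 10 genes. At an adjusted p under 0.05, 5 genes were lower in ΔIEC organoids, and with only the groups compared 5 in ΔIEC and 1 in fl/fl organoids. With the cultures of a line summed, 0 genes were called for IL-22 in fl/fl and between genotypes, and 1 higher and 0 lower for IL-22 in ΔIEC organoids; fewer samples enter that fit.

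Leaving out each culture or line gave 1 to 3 higher and 0 to 2 lower genes for IL-22 in fl/fl, 0 to 3 lower for IL-22 in ΔIEC, 3 to 6 lower in ΔIEC untreated and 0 to 6 with IL-22. No lower gene was left in fl/fl without untreated replicate 2 or treated replicate 3 or 4. None was left in ΔIEC, or between genotypes with IL-22, without line 1290.

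Direction turned for 14 values of single genes, near 0 or resting on 1 line and none past the threshold. The Zg16 interaction was -0.0466 with limma-voom. Over the fits that left out a culture or line, that interaction ran from -0.51 to 0.42 and the Atoh1 interaction from -0.079 to 0.18. Spdef with IL-22 in ΔIEC ran from -0.042 to 0.38, turning without treated replicate 3, and Spink4 with IL-22 in fl/fl from -0.012 to 0.29, turning without untreated replicate 3. Between untreated genotypes, Clca1 ran from -1.11 to 0.94 and turned without line 1290 or 1293 (adjusted p = 0.0727 without 1293), and Zg16 ran from -0.061 to 0.92 and turned without line 1294. The cause was not tested. Depth limits Zg16, Spdef and Atoh1 most, with as few as 19, 19 and 26 reads in a culture.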
